A study of Mus musculus with 8 samples.

Results

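The genes described here encode the proteins of the cytoplasmic ribosome, and the question put to them was how their transcripts were divided between the alleles of hybrid mouse blastocysts. Members were taken by symbol: every gene of the count table named Rpl, Rps or Rplp with a number, including close relatives ending in l, without the X-linked ones. This gave 78 of 22810 genes, 30 of the small and 48 of the large subunit, all autosomal and spread over 18 chromosomes. Transcripts of single embryonic day 3.5 (E3.5) blastocysts were sequenced with SMART-Seq2, a full-length single-cell method. Reads were assigned to an allele at bases that differ between C57BL/6 (B6), a laboratory strain, and Mus musculus castaneus (cast), a wild-derived subspecies. In the forward cross (3 embryos) the mother was B6 and the father cast, and in the reverse cross (5 embryos, numbered 1, 2, 3, 5 and 7) the mother was cast and the father B6. All embryos came from natural matings and were lysed without culture. No source used here gives the embryos' sex or says which of them shared a litter, so no p-value reaches beyond the spread between these 8 embryos. Tests of strain and parent used 16 allele libraries, the B6 and the cast reads of each embryo. Unless a term for each embryo is named, they took these libraries as independent.

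A ribosome holds a single copy of nearly every one of its proteins, and the small subunit decodes the messenger RNA while the large subunit joins the amino acids. Cells therefore make these proteins in matched amounts, and losing a single allele of some of them is enough to cause disease: Diamond-Blackfan anaemia in people, and the Minute phenotypes in flies. Preimplantation embryos start with ribosomes laid down by the oocyte and build their own as they become blastocysts. The transcripts are short, abundant and often copied back into the genome, so that most ribosomal protein genes have many processed pseudogenes, intronless copies that resemble them closely.

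How alike these copies are is shown by short stretches of coding sequence, given because nearly all members have such copies and a read can be placed with certainty only where gene and copy differ. Each stretch has 60 bases, from the GENCODE M21 transcripts on mm10, 5′ to 3′, and capitals mark the bases that differ within a pair. Rpl37, a large subunit gene (chr15:5116645-5119140, plus strand), differed from Rpl37rt, a transcribed processed pseudogene (chr5:115102923-115110268, minus strand), at 1 of 291 coding bases, shown in coding bases 211 to 270.
Rpl37: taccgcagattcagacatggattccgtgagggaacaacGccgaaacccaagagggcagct
Rpl37rt: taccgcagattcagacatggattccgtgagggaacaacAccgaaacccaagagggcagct
Rpl23 (chr11:97777527-97782437, minus strand) and its processed pseudogene Gm9794 (chr6:66875321-66875743, minus strand) also differed at 1 base, of 420, shown in coding bases 224 to 283.
Rpl23: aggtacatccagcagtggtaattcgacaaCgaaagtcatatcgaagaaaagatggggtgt
Gm9794: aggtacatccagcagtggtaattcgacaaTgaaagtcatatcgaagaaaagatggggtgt
Rplp0 (chr5:115559467-115563727, plus strand) and the processed pseudogene Gm8730 (chr8:102864845-102865798, minus strand) differed at 12 of 951 bases, 3 of them within coding bases 389 to 448.
Rplp0: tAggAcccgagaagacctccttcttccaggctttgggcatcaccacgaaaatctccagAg
Gm8730: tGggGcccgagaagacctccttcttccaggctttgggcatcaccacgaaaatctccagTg
For contrast, Rps27 (chr3:90212522-90213651, minus strand) and Rps27l (chr9:66946086-66949516, plus strand), which are separate protein-coding genes, differed at 60 of 252 bases, 19 of them within coding bases 8 to 67.
Rps27: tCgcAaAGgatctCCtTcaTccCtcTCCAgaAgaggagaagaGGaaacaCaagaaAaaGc
Rps27l: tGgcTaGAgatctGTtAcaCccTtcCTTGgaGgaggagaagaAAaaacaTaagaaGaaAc

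Each embryo gave between 1060063 and 1632695 allele-specific reads, of which 57.4 to 58.3% were B6 in every embryo. All 7 trophectoderm, 6 epiblast and 5 primitive endoderm genes of fixed marker lists had reads. The 78 members held 32662 to 67857 of these reads. Of the members, 76 reached 10 reads in at least 1 allele library and were tested with the 12565 autosomal genes that did. Rpl3l, a relative of Rpl3 best known from muscle, was among those that did not, with 4 reads in all. In 51 members every embryo had at least 20 reads, and B6 shares per embryo are described for these, and for Rpl38 and Rplp2 on fewer reads. The number of reads of a gene depends on how many strain differences its transcript holds, so reads of different genes do not compare their expression. Where reads of genes or groups of genes are set side by side below, they describe depth only. The 95% Wilson interval of a share in a single embryo had a median half-width of 0.995 percentage points at 1000 reads or more and 13.2 points at 20 to 99 reads, which covers counting error only.

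The members' reads were divided by strain and not detectably by parent. In each embryo 73.4 to 77.6% of ribosomal protein reads were B6, so that the maternal share was 74.5 to 75.0% in the forward cross and 22.4 to 26.6% in the reverse cross. For the median member with at least 20 reads in the embryo, forward embryos had a B6 share of 66.8% ± 4.66 (SD, n = 3) and reverse embryos one of 65.0% ± 3.27 (SD, n = 5). Over all tested genes these medians were 55.9% ± 0.509 and 56.4% ± 0.998. The groups of embryos overlapped in both. The plot of B6 shares by member shows that the excess came from a set of genes near 100% B6.

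**Figure D1:**
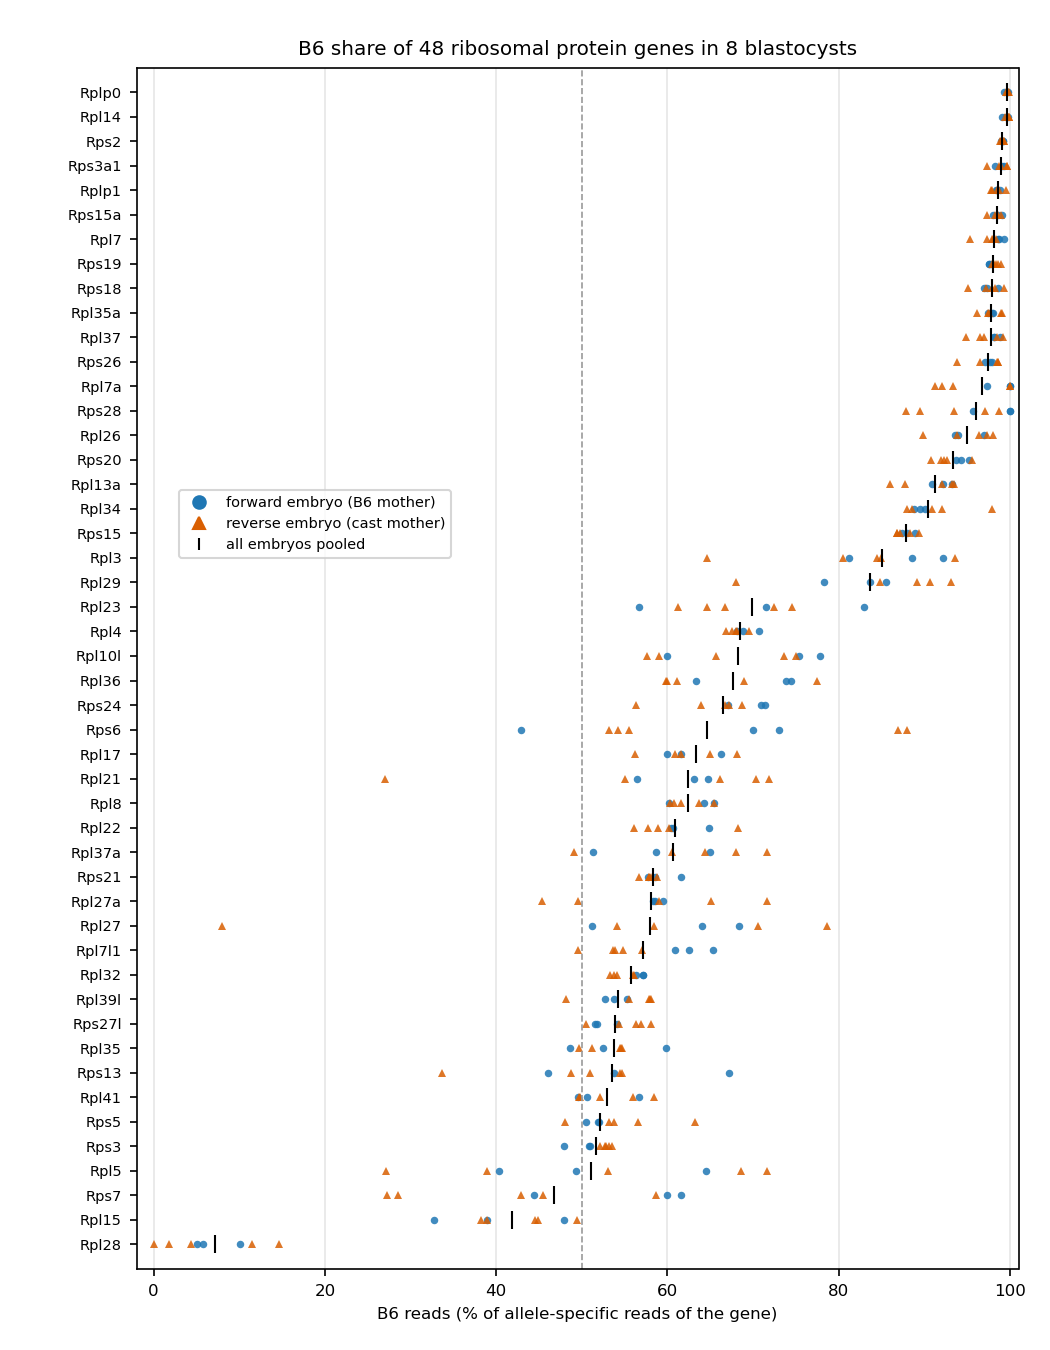
B6 share of allele-specific reads (x axis, percent) for 48 ribosomal protein genes with at least 20 reads in every embryo (rows, ordered by pooled share). Circles are the 3 forward embryos, triangles the 5 reverse embryos and vertical ticks the pooled share. The topmost 15 genes lie at 95% or more B6 when pooled, in both crosses, and Rpl28 alone lies under 10%.

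Imprinting would appear as a difference between the maternal and the paternal allele in both crosses, and the first comparison asked whether any ribosomal protein gene showed one. None of the 76 members was called for parent of origin, against 1.42% of all genes (179 of 12565; edgeR quasi-likelihood test, adjusted p at most 0.1). A single member had an unadjusted p under 0.05, as did 920 of all 12565 genes. DESeq2 called 0 members and 254 of 12199 genes, with 2 members and 880 genes under that level. The paternal over maternal log2 fold change lay within 0.5 of zero for 85.5% of members and 67.4% of all genes. Its median was -0.06 over members and -0.01 over all genes. As few as 3 forward embryos, and low counts for many members, limited what this test could detect.

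The lowest p belonged to Rpl38, a large subunit protein whose loss on an allele causes skeletal patterning defects in mice. In forward embryos 88.6, 72.7 and 73.7% of its reads were B6, that is maternal, on 44, 22 and 19 reads. In reverse embryos 20, 63.6, 12.5, 25 and 72.7% were B6, that is paternal, on only 45, 11, 8, 16 and 11 reads. Forward embryos were high and 3 of the reverse embryos low, and the highest reverse embryo reached the level of the lowest forward embryo. The log2 fold change was -1.52 ± 0.52 (SE), toward the maternal allele, with an adjusted p of 0.288 in edgeR over 176 reads in all. The newer dispersion method of edgeR called it, with an adjusted p of 0.0726, and called 306 of all 12565 genes.

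A term for each embryo, which pairs its alleles, called 1 member, Rpl7, against 3.10% of all genes. Rpl7, a large subunit protein that binds ribosomal RNA, was nearly all B6 in every embryo: 98.7, 99.3 and 98.6% in forward and 95.3, 97.3, 98.4, 98.0 and 97.9% in reverse embryos, in their numbered order. All forward embryos lay above all reverse embryos, by small distances on a share near its upper limit. The log2 fold change was -0.54 ± 0.26 (SE), toward the maternal allele, with an adjusted p of 0.687 without and 0.0616 with the embryo term. Leaving the embryo term out thus ended the call.

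Equal expression from both parents was also tested directly, as a fold change shown to be within 2-fold in either direction. By this test 45 of the 76 members were equivalent, or 59.2%, against 35.6% of all genes (a pair of one-sided edgeR quasi-likelihood tests, adjusted p at most 0.1). Members had more reads than other genes, with a median of 1099 against 309 over the 8 embryos. Among the 51 members with at least 20 reads in every embryo 44 were equivalent, and among the other 25 only 1 was. With the test limited to genes of at least 10 reads in every embryo, 56 of 60 members and 5590 of 7161 genes were equivalent. No member, and no gene, was equivalent within 1.5-fold, where 20 members and 1137 genes had an unadjusted p under 0.05. Without forward embryo 2 the count was 28, beside 1832 of 12498 genes, and without forward embryo 3 it was 24, beside 1615 of 12485, so that both fell.

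Some markers of cells from outside the embryo had mostly maternal reads, and the levels of leukocyte genes did not overlap between the crosses. The 8 genes of a leukocyte and macrophage list, all detected, summed to 33.7 to 706 RPM (reads scaled to a common library total) in forward and 3.77 to 5.63 in reverse embryos, the highest being forward embryo 1. Of their reads 1250 were maternal and 20 paternal, and Lyz2, lysozyme of myeloid cells, gave 1149 of them. A single embryo held 1055 of these Lyz2 reads, so the maternal lean of the list rests mostly on 1 embryo. Cd68 (6 maternal and 7 paternal reads) and Csf1r (5 and 3) had few reads and no clear lean. Of 6 red cell genes 2 were in the count table, with 3.91 to 11.3 RPM in forward and 2.67 to 51.2 in reverse embryos. They had 201 maternal and 6 paternal reads, of which Alas2, an X-linked gene, gave 199 and 6. Of 8 oocyte genes 7 were present, at 7.81 to 20.2 RPM in forward and 9.97 to 18.0 in reverse embryos, with 111 maternal and 35 paternal reads. Both of these lists overlapped between the crosses. Cumulus genes had 8 maternal and 7 paternal reads, and genes of uterine and oviduct epithelium 168 and 125. Without forward embryo 1 again 0 members were called for parent of origin. The part of such cells in the members' values was not tested further.

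The second comparison asked whether the alleles differed by strain, whichever parent they came from. Of the 76 members 27 were called, 25 toward B6 and 2 toward cast (edgeR quasi-likelihood test, adjusted p at most 0.1). Toward B6 this was 32.9% of members against 11.0% of all genes, and toward cast 2.63% against 4.45%. Both subunits took part, with 11 of 30 small and 14 of 46 large subunit genes called toward B6. Their log2 fold changes ran from 0.71 to 7.73, and 15 were above 4. With the embryo term 37 members were called, 32 toward B6 and 5 toward cast, against 15.8% and 9.69% of all genes, and all 27 were among them.

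**Figure D2:**
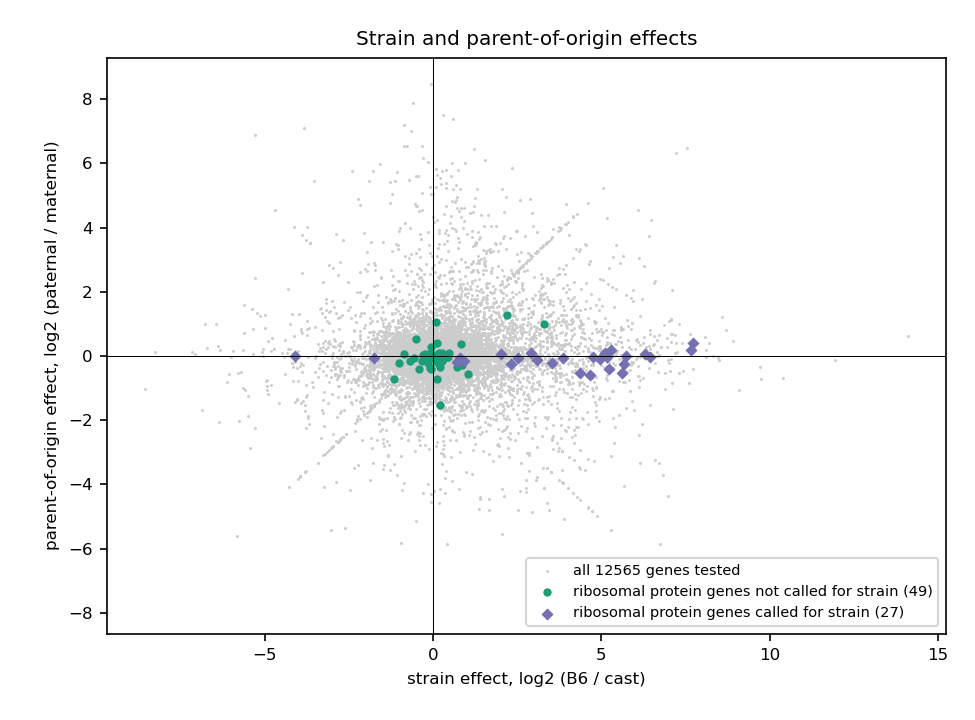
Strain effect (x axis, log2 of B6 over cast) against parent-of-origin effect (y axis, log2 of paternal over maternal) from the edgeR fit, with all 12565 tested genes in grey, the 27 ribosomal protein genes called for strain as diamonds and the other 49 as circles. The members stretch along the strain axis, from -4.09 for Rpl28 to 7.73 for Rplp0, with parent-of-origin effects of -1.52 (Rpl38) to 1.29 (Rpl24).

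Reads were summed over the members called toward B6 and over the rest, a division by the call itself and given as a description. The 25 genes called toward B6 held 203011 reads, 92.5% of them B6, which came to 92.5% ± 0.264 over the forward embryos (SD, n = 3) and 92.5% ± 0.747 over the reverse embryos (SD, n = 5). The other 51 tested members held 193285 reads at 55.9% B6, or 56.3% ± 0.324 and 55.5% ± 0.682 by cross. These latter values lie beside the 57.4 to 58.3% of all reads. Among the 51 members with at least 20 reads in every embryo, 15 were at least 90% B6 in every embryo, against 1.32% of all such genes. Pooled over embryos 16 were at 95% or more, against 1.55%. Only Rpl28 was at 10% or less, against 0.214%.

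The acidic stalk of the large subunit, which recruits the factors that drive translation, is built from Rplp0 and from Rplp1 and Rplp2, and its genes went in opposite directions. Rplp0, the base of the stalk, was 99.7, 99.6 and 99.3% B6 in forward and 99.8, 99.6, 99.8, 99.5 and 99.8% B6 in reverse embryos. Over all embryos it had 23431 B6 and 81 cast reads, and no embryo strayed from the rest. Its log2 fold change of B6 over cast was 7.73 ± 0.43 (SE; adjusted p 8.36e-12, edgeR), the largest of any member. Rplp1 (chr9:61913284-61914542) was 98.3, 98.9 and 98.5% B6 in forward and 99.5, 98.7, 97.8, 98.5 and 97.9% B6 in reverse embryos, with a log2 fold change of 5.73 ± 0.30. Rplp2 (chr7:141447370-141451585) had 41 B6 and 116 cast reads in all, with a log2 fold change of -1.74 ± 0.56 (adjusted p 0.0456, edgeR). Its B6 share ranged from 0 to 54.5% between embryos, on few reads, and it was no longer called without forward embryo 1 (adjusted p 0.159) or without forward embryo 2 (adjusted p 0.153).

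Among the small subunit proteins, Rps2, which lies near the entry of the messenger RNA (chr17:24718116-24721929), had 14138 B6 and 129 cast reads. Its shares were 98.9, 99.2 and 99.2% B6 in forward and 99.3, 98.9, 99.3, 98.9 and 99.2% B6 in reverse embryos (SD 0.173 points over the 8 embryos). The log2 fold change was 6.45 ± 0.27. Rps3a1 (chr3:86137940-86142702) was 97.3 to 99.7% B6 in the 8 embryos and had 7203 B6 and 72 cast reads. Rps15a (chr7:118104372-118116188) was 97.3 to 99.1% B6, with 6927 and 109 reads. In both genes the forward and reverse values overlapped. Their log2 fold changes were 6.31 ± 0.37 and 5.68 ± 0.31.

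Rps19 (chr7:24884371-24889806), the gene most often mutated in Diamond-Blackfan anaemia, had 16036 B6 and 326 cast reads. It was 97.6, 97.5 and 97.8% B6 in forward and 98.9, 98.1, 97.9, 98.3 and 98.6% B6 in reverse embryos. Every reverse embryo, with a B6 father, was slightly above every forward embryo, and the parent-of-origin test gave a log2 fold change of 0.19 ± 0.29 (adjusted p 0.9999, and 0.212 with the embryo term; edgeR). Its strain log2 fold change was 5.28 ± 0.35.

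On the large subunit, Rpl14 (chr9:120571444-120574654) had 10812 B6 and 42 cast reads. It was 99.5, 99.0 and 99.8% B6 in forward and 99.5, 99.7, 99.9, 99.9 and 99.9% B6 in reverse embryos, with overlapping groups. The log2 fold change was 7.66 ± 0.49, and that of Rpl7 was 5.60 ± 0.30. Rps18, Rpl35a, Rpl37, Rps26, Rpl7a, Rps28 and Rpl26 also lay at 95% or more B6. Rps20, Rpl13a and Rpl34 lay between 90 and 95%, and Rps15, Rpl3 and Rpl29 between 80 and 90%.

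Rpl28 (chr7:4792874-4795066) was the exception, with 67 B6 and 870 cast reads. Its B6 share was 10.1, 5.05 and 5.71% in forward and 0, 14.6, 1.74, 11.5 and 4.31% in reverse embryos. Reverse embryo 1 had 0 B6 reads of 20, which allows a share of up to 15%. The log2 fold change was -4.09 ± 0.51 (adjusted p 4.72e-06, edgeR), and all embryos of both crosses were low in B6 reads. The annotation places the ubiquitin-conjugating enzyme gene Ube2s across part of the same interval, on the other strand. Such an overlap is not particular to Rpl28, since 21 members have one, and the use of strand in counting is not stated.

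Most other members with many reads stayed near the level of the library. Rpl13a (chr7:45125558-45128761) did not, with 90.9, 92.2 and 93.3% B6 in forward and 85.9, 87.8, 93.5, 92.1 and 93.3% B6 in reverse embryos and a log2 fold change of 3.10 ± 0.29 (adjusted p 3.76e-08, edgeR). Its groups of embryos overlapped, and all 8 were high. On chromosome 10, Rpl41 (52.9% B6 pooled) and Rps26 (97.4%) lie 75228 bp apart. Some other neighbours had shares closer together, such as Rps18 (97.9%) and Rps28 (96.0%), 127436 bp apart on chromosome 17. So did Rpl36al (59.7% of 77 reads) and Rps29 (54.1% of 85 reads) on chromosome 12. Others lay far apart in share, such as Rpl13a (91.3%) and Rpl18 (48.8% of 172 reads), 586695 bp apart on chromosome 7.

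Rps3 (chr7:99477896-99483738), a small subunit protein that also takes part in DNA repair, had 17248 B6 and 16147 cast reads. Its share was 50.8, 47.9 and 50.9% B6 in forward and 53.5, 52.8, 52.7, 53.2 and 52.1% B6 in reverse embryos, every reverse embryo above every forward one. Since the whole library leaned to B6, its strain log2 fold change was -0.25 ± 0.24 (adjusted p 0.606), called toward cast only with the embryo term (adjusted p 0.000854, edgeR), and it turned to 0.08 with a single library size per embryo. Rpl4 (chr9:64173375-64178666), with 23581 reads, was 66.8 to 70.7% B6 in all embryos. It was called toward B6 at a log2 fold change of 0.80 ± 0.25 (adjusted p 0.0422), and this call was lost when any forward embryo, or reverse embryo 5, was left out (adjusted p 0.109 to 0.157).

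Ribosomal protein genes whose partial loss is known to cause disease or developmental defects formed a list of 13 members. Of these 6 were called toward B6 (Rps19, Rps20, Rps26, Rps24, Rpl35a and Rpl26) and 0 toward cast, 0 were called for parent of origin, and 8 were equivalent between parents. Over all genes these shares were 11.0, 4.45, 1.42 and 35.6%, and 32.9% of all 76 tested members were called toward B6. With the embryo term 7 were called toward B6, by the addition of Rpl24, and 1 toward cast, against 15.8 and 9.69% of all genes. Rpl5 and Rpl11, which with 5S RNA bind Mdm2 and stabilise p53, had 51.1 and 59.3% B6 reads over all embryos and were not called. Rps24 was 66.5% B6 (log2 fold change 0.71 ± 0.23, adjusted p 0.0449) and lost its call without forward embryo 2, forward embryo 3 or reverse embryo 7, and without the filter on low counts (adjusted p 0.116 to 0.164). Rps7, Rps10 and Rpl38 lay at 46.7, 38.3 and 55.7% B6, without a call in either direction.

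Several members have a relative that can take the place of the standard protein in some tissues. Of the 7 such relatives in the rule, 6 were tested, and their pooled B6 shares were 53.9 to 68.2%. None was called for strain or parent, against 15.5 and 1.42% of all genes. Rps27l, a p53 target, had 9911 B6 and 8466 cast reads and was 51.6, 51.8 and 54.1% B6 in forward and 50.5, 56.9, 54.4, 58.0 and 56.3% B6 in reverse embryos. Rps27 itself had only 173 reads (41.0% B6). Rpl7l1 had 57.2% B6 reads, against 98.2% in Rpl7, and with the embryo term it too was not called for strain (adjusted p 0.375).

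Rpl39l, known from the male germ line, had 4835 reads at 54.2% B6. Rpl10l, an intronless relative of X-linked Rpl10 also known from the male germ line, had 1064 reads at 68.2% B6 and was called toward B6 only with the embryo term (adjusted p 0.158 without and 0.00614 with it, edgeR). Rpl22 had 60.9% B6 reads and was called toward B6 only with the embryo term (adjusted p 0.437 without and 0.0624 with it, edgeR). Rpl22l1, its relative, was 61.1% B6 on only 54 reads.

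Copies of the coding sequences set the members apart from other genes, and values for them stand here beside the strain result. A copy was another annotated gene whose transcript matched at least 50% of the coding sequence at 90% identity or more. Of 75 tested members with an annotated coding sequence 72 had a copy, with a median of 9 and up to 85 for Rpl7a, while 40 of 53 ribosome biogenesis genes had none. Of all 50-base windows of a member's coding sequence, a median of 91.3% occurred unchanged in another annotated gene, against 0% for the biogenesis genes. Across members this percentage and the number of reads had a Spearman rho of -0.62 (n = 75 genes, which share libraries and are not independent), and reads that map to several places had been left out by the study.

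Members in the middle of that range were those most often called toward B6. With under 50% of windows found elsewhere, 2 of 14 members were called toward B6 and the median pooled share was 57.6%. From 50 to under 95% of windows, 20 of 28 were called and the median share was 95.9%. At 95% or more, 3 of 33 were called and the median share was 58.1%, on a median of 283 reads against 3813 in the middle class. Over all tested genes 11.0% were called toward B6, so the outer classes lay near that share. These limits were set after the values had been seen, so no test is given, and the relation did not run in a single direction (Spearman rho -0.23 with the strain log2 fold change, n = 75). The 7 members with under 25% of windows elsewhere, with 1064 to 33395 reads each, were 51.6 to 68.5% B6. All 22 members called toward B6 at 80% or more had at least 1 copy, with 43.3 to 100% of windows elsewhere. The part of the copies in the strain differences was not tested.

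**Figure D3:**
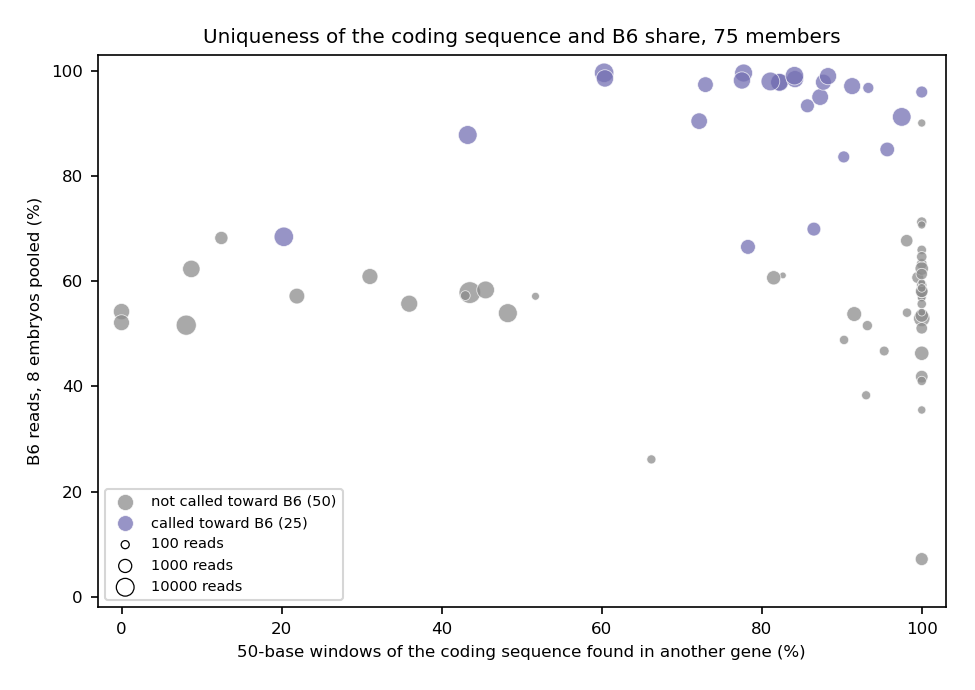
Percent of 50-base windows of the coding sequence that also occur in another annotated gene (x axis) against the pooled B6 share of reads (y axis, percent) for 75 ribosomal protein genes, with the area of a point growing with its reads. Members called toward B6 (25, purple) lie between 60 and 95% on the x axis in most cases, while the 7 genes under 25% lie between 51.6 and 68.5% B6.

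Some pseudogene copies had rows of their own in the count table. Of 34 such rows 12 had at least 20 reads, and 6 of these were at least 90% B6 while 0 were at most 10% B6. Gm6745, a copy of Rpl11, and Gm10548, a copy of Rpl29, were not among these, at 31.8 and 51.2% B6. Together the 34 rows held 7589 B6 and 448 cast reads, most of them in a single row. That row, Rpl37rt, whose sequence is shown above beside Rpl37, had 5662 B6 and 5 cast reads, and Rpl37 had 10536 and 232. In forward embryos Rpl37 was 98.2, 98.8 and 98.1% B6, and in reverse embryos 99.1, 94.9, 98.5, 96.5 and 97% B6. Gm9794, the copy of Rpl23, had 701 B6 and 8 cast reads, while Rpl23 was 69.9% B6 (974 and 419 reads; log2 fold change 0.91 ± 0.26, adjusted p 0.0210, and 0.173 without forward embryo 2). The member Rpl32l is itself annotated as a processed pseudogene, of Rpl32, and had 55 B6 and 2 cast reads. Because gene and copy differ at so few bases, reads of such pairs cannot be assigned with certainty.

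The spread of a share between embryos depends on its level, since a percentage near 100% has little room to vary, and 16 of the 51 members lay at 95% B6 or more. Over the 51 members the SD of the B6 share over 8 embryos had a median of 3.37 points, against 9.38 over all 5608 genes with as many reads per embryo. Among genes with at least 2000 reads in all, the median SD was 1.56 points for 32 members and 5.48 for 1114 genes. Relative to the SD that counting alone would give, the median was 1.74-fold for members and 2-fold for all genes. These values describe the members and carry no test.

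Of the 5 members with the largest SD, 4 had under 500 reads in all. Rpl27 had the largest SD, 21.6 points, with 64.0, 51.2 and 68.3% B6 in forward and 58.4, 8, 54.1, 78.7 and 70.6% in reverse embryos. Reverse embryo 2 alone was low there, at 8% of 50 reads (95% Wilson interval 3.15 to 18.8%). Rps6, the small subunit protein phosphorylated downstream of mTOR, had 42.9, 70.0 and 73.1% in forward and 88.0, 87.0, 55.6, 53.1 and 54.3% B6 in reverse embryos on 25 to 54 reads each. Rpl5, Rpl21 and Rps7 followed, with SDs of 15.8, 14.3 and 13.4 points, and Rpl21 was the exception in depth, with 1155 reads and an SD 3.33 times that of counting. The lowest SDs in points, 0.173 for Rps2, 0.198 for Rplp0 and 0.306 for Rpl14, belonged to genes above 99% B6, and relative to counting they were 0.765, 1.73 and 1.74, beside the median of 1.74.

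The third comparison set the total level of each gene, both alleles summed, in the forward cross against the reverse cross. No member was called, against 0.103% of all genes (13 of 12565; edgeR quasi-likelihood test), and the lowest adjusted p was 0.567. An unadjusted p under 0.05 was reached by 5 of the 76 members and by 927 of the 12565 genes. DESeq2 called 0 members and 130 of 11791 genes, with 10 members and 1032 genes under that level. Without reverse embryo 1, edgeR called 0 members and 163 of 11932 genes. By point estimate 54 members were lower and 22 higher in the reverse cross, with a median log2 fold change of reverse over forward of -0.23 against 0.08 over all genes. In 10 members the level in every forward embryo exceeded that in every reverse embryo, against 3.66% of genes, and in 0 members the opposite held, against 2.72%. Rpl13a, Rpl14, Rpl26, Rpl37, Rps13, Rps15, Rps15a and Rps24 were among the former.

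As a share of all allele-specific reads the members took 4.16, 4.23 and 4.33% in forward and 2.40, 3.06, 3.75, 3.80 and 3.08% in reverse embryos. The crosses did not overlap, and reverse embryo 1 was the lowest. A list of 7 trophectoderm genes, which mark the outer layer of the blastocyst, summed to 3973 to 4993 RPM in forward and 930.1 to 3959 in reverse embryos. Reverse embryo 1 was lowest there too, and Krt8 (18849 reads) and Krt18 (14877) gave most of that sum. The 5 primitive endoderm genes did not overlap either, at 309 to 332 RPM in forward and 173 to 278 in reverse embryos. The 6 epiblast genes did, at 274 to 347 and 247 to 507 RPM. The part of these lists in the members' level was not tested. Fewer cells of a type and less RNA per cell cannot be told apart in whole embryos, and mother, father and cross direction changed together.

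**Figure D4:**
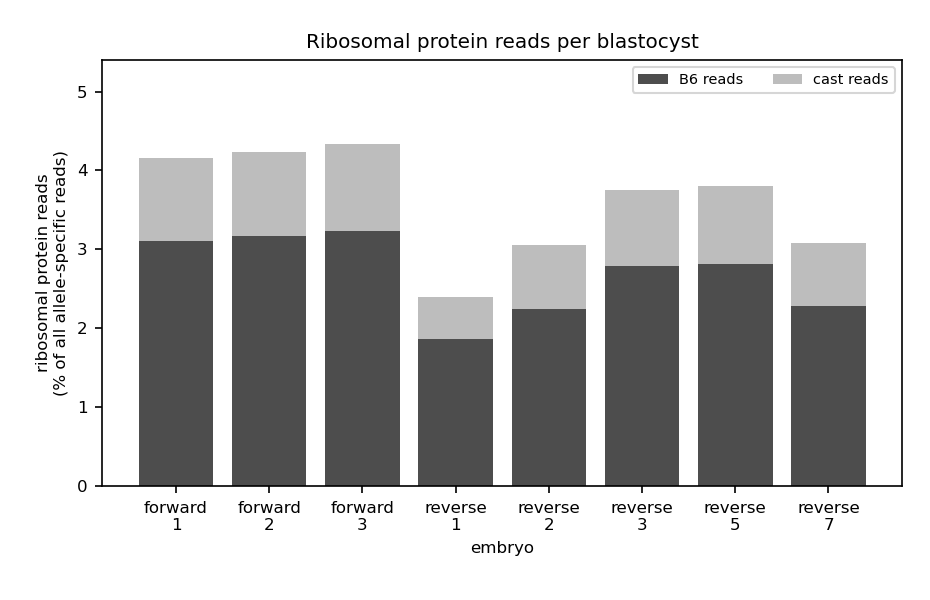
Ribosomal protein reads as a percent of all allele-specific reads (y axis) in each of the 8 blastocysts (x axis), split into B6 (dark) and cast (light) reads. The 3 forward embryos stand at 4.16 to 4.33% and the 5 reverse embryos at 2.40 to 3.80%, with 73.4 to 77.6% of each bar B6.

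Genes that work with the ribosomal proteins gave a view of the same pathway. Of 4 ribosome genes with other names, Rpsa was called toward B6 (88.8% B6, log2 fold change 2.67 ± 0.30, adjusted p 8.51e-07, edgeR), while Fau and Rack1 had 53.5 and 53.7% B6 reads and no call. Of 53 genes of ribosome biogenesis, from RNA polymerase I to late assembly factors, 48 were tested. None was called for parent of origin or between crosses, 43 were equivalent between parents, 6 were called toward B6 and 1 toward cast (edgeR), against 35.6, 11.0 and 4.45% of all genes. Their median B6 share was 55.6% and 0 of them reached 95%. Ddx18, an RNA helicase, was highest with 1547 B6 and 102 cast reads, and Npm1, the nucleolar chaperone nucleophosmin, had 5463 and 858. Ncl, nucleolin, was 46.8 to 51.8% B6 in the 8 embryos.

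Of the 25 tested members below 20 reads in some embryo, each had 54 to 560 reads in all, a median of 157. Their pooled B6 shares were 26.1 to 96.5%, with a median of 57.3%, and 24 were not called for strain. Rpl24, the gene of the Belly spot and tail mouse, was among them with 91 B6 and 10 cast reads, a log2 fold change of 2.20 ± 0.89 and an adjusted p of 0.121 without and 0.0820 with the embryo term (edgeR). At this depth a moderate difference between alleles was not detectable.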

How the data were processed

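Allele-specific RNA sequencing of 8 single blastocysts (3 forward, 5 reverse) was analysed. Per the labels and methods, SMART-Seq2 reads were aligned to mm10, the reference genome of B6, with STAR (2.5.2b in the submitters' processing notes), and the authors deposited counts of reads per gene and allele, made with Allelome.Pro at strain-specific single-base variants. Reads mapping to several places were left out before counting. Use of strand is not given in the sources used here. The study had removed 2 reverse embryos, not analysed here.

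From the counts, autosomal genes with at least 10 reads in 1 of the 16 allele libraries were fitted with edgeR 4.0.16 (TMM, terms for strain and parent, quasi-likelihood test, Benjamini-Hochberg adjustment over all genes, adjusted p at most 0.1). Equivalence used a pair of one-sided tests against a log2 margin of 1. Crosses were compared on embryo totals. DESeq2 1.42.0, RLE factors, other filters and leaving out each embryo were alternatives. The alleles of an embryo come from the same animal and so are paired: their deviations correlated at 0.08 to 0.49. The main fit left this pairing out. A fit with a term for each embryo is given for the counts of calls and for some of the members whose call it changed. Copies were found with blastn 2.17.0 in GENCODE M21 transcripts. Methods were tested on simulated counts.

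Genes were named by rule: members called for parent of origin with or without the embryo term, the 8 largest strain effects toward B6 and up to 6 toward cast at 20 reads in every embryo, the 5 with most reads, the 5 largest and 3 smallest SDs, and fixed lists of paralogues, dose-sensitive genes, stalk genes and biogenesis genes. Rpl13a, Rpl18, Rpl41, Rpl37, Rpl23, Rpl32l, Rps13 and the members listed only by their B6 band or by levels that did not overlap were added after their values had been seen. Some genes that the rules pick are not reported here, though they are in the counts of members. The members and lists were chosen with earlier results of these data known.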

Additional observations from a re-analysis of the deposited data

Results flagged for a closer look

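In the reverse cross, 48 members with at least 20 reads in every embryo were examined for a single embryo far from the other 4, and 2 were found. About 1 group in 20 is found in this way by chance. Rpl39l was 48.2% B6 in reverse embryo 3 and 55.5 to 58.0% in the others. Rps13, a small subunit protein, was 33.7% B6 in reverse embryo 1, on 95 reads, and 48.7 to 54.7% in the others.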

How the results depend on the processing

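Of the 27 strain calls, 23 held under every one of 15 alternatives, among them 22 of the 25 toward B6. The count of strain calls was 23 to 31 on leaving out 1 embryo and 27 to 37 otherwise. Over all genes it was 1206 (of 12183) to 2453 (of 11932) and 1068 (of 7161) to 3207 (of 12565). Calls toward cast were 4 with DESeq2, 5 with the replicate block (a term for each embryo) and 1 to 4 on leaving out 1 embryo. Over all genes they were 712 of 12413, 1218 of 12565, and 288 (of 12183) to 823 (of 11932). With 1 library size per embryo the median strain effect of all genes moved by 0.33 on the log2 scale, and Rps3 turned from -0.25 to 0.079. In that setting 33 members were called toward B6 and 2 toward cast, beside 2251 and 325 of 12565 genes. For parent of origin, 0 members became 1 with the replicate block (Rpl7) and 1 with the newer dispersion method (legacy = FALSE; Rpl38), and stayed at 0 on leaving out each embryo. Over all genes the counts were 389 and 306 of 12565, and 120 (of 12485) to 195 (of 11932). The 45 equivalent members became 52 with the replicate block, 0 at a margin of 1.5-fold and 24 to 54 on leaving out 1 embryo. Over all genes these counts were 5698 and 0 of 12565, and 1615 (of 12485) to 5659 (of 11932). Calls between crosses were 0 under all alternatives run, which called 0 (of 7161) to 163 (of 11932) of all genes. There, embryo numbers shared by the crosses were taken as names only, since deviations of same-numbered embryos correlated at 0.129, 0.00463 and 0.107, and a fit with them as a block called 0 members. The median B6 share was 64.1 to 69.0% at other read minimums, and the count of members at least 90% B6 in every embryo, an alternative set chosen after seeing the data, was 14 to 16. Low counts limited single-embryo shares, and 3 forward embryos limited the tests of parent and cross.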
